A study of Mus musculus with 6 samples.

Results

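MiR-335 is a microRNA (miRNA), a short RNA that guides the silencing of messenger RNAs, and it was followed here through both of its mature arms, miR-335-5p and miR-335-3p. The arms were chosen by name from a table of small RNA sequencing values, where they are 2 of 1251 listed miRNA arms, and both passed the filter on low values, which left 269 arms to test. The table holds 3 libraries of interscapular brown adipose tissue (BAT_EPA, numbered 3, 4 and 5) and 3 of inguinal subcutaneous adipose tissue (SAT_EPA, numbered 1, 3 and 8). All 6 came from C57BL/6J mice, an inbred laboratory strain, aged 5 to 6 weeks when feeding began. Every group received for 11 weeks a high-fat diet (fat for 45% of the energy, protein for 20%, carbohydrate for 35%) with 6.75% eicosapentaenoic acid (EPA), an omega-3 fatty acid, and was fasted for 4 hours before the tissues were taken. The comparison is therefore between the tissues of EPA-fed mice, and libraries fed without EPA were not analysed here.

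A miRNA hairpin is cut by Dicer into a duplex, and an Argonaute protein keeps one strand of it, the guide, while the other is mostly degraded. The strand from the left side of the hairpin is named 5p and that from the right side 3p, and bases 2 to 8 of the kept strand, the seed, set most of its target choice. MiR-335 lies within Mest (also called Peg1), an imprinted gene that is expressed from the paternal allele, encodes a protein of the alpha/beta hydrolase fold family, and is known in mice for its rise in white fat during fat mass expansion. MiR-335 is reported to be raised in the liver and white fat of obese mice. In human cells it is known as a suppressor of breast cancer metastasis and as a regulator of mesenchymal stem cells.

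The hairpin and both mature arms are shown because the arm comparison turns on them (RefSeq, GRCm38.p6, chromosome 6, 30741299 to 30741396, plus strand). In the hairpin the capitals mark the arms, 5p on the left and 3p on the right, and in the mature sequences they mark the seed.
miR-335 hairpin: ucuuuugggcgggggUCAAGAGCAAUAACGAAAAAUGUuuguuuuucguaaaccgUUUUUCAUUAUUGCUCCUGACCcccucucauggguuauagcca
miR-335-5p: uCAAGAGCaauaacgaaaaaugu
miR-335-3p: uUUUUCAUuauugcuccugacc

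The hairpin is 98 bases long, with 17 bases between the arms. The 5p arm has 23 bases (30741314 to 30741336) and the 3p arm 22 (30741354 to 30741375), so the arms are close in length. In the fold predicted by RNAfold (minimum free energy -44.3 kcal per mol), 18 of the 23 bases of the 5p arm pair with a base of the 3p arm. Both arms are poor in G and C, with a GC content of 36.4% for miR-335-3p and 30.4% for miR-335-5p, against a median of 50% over the 229 tested arms with a RefSeq sequence. Neither seed occurs in any other of the 1679 mature miRNA names searched, so no other arm with a searched sequence could be grouped with them by seed. Arms without a RefSeq sequence were not searched. In GENCODE M21 on GRCm38, Mest spans 30723547 to 30748465 on the same strand. The hairpin falls in an intron (30740825 to 30742140) of each of the 7 Mest transcripts that span it, intron 2 of Mest-210 and Mest-211, and overlaps no exon of the 11 annotated transcripts.

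The values are normalized abundances on a log2 scale, with a floor at 3.32 (10 on the linear scale) where 910 arms stand in all 6 libraries. Between 235 and 273 arms were above it in each library. Read depth per library is unknown from such values, so no counting interval is given, and an arm at the floor is described as listed there, without a fold. Known markers were compared between the labelled tissues. All 4 tested brown fat miRNAs (among them miR-378a-3p, miR-193b-3p and miR-455-3p) were higher in brown fat, as were 33.5% of all tested arms. All 3 Hox cluster miRNAs listed for the posterior body (miR-196a-5p, miR-196b-5p and miR-10b-5p) were lower there, as were 35.7% of all tested arms. Of Hox cluster miRNAs outside the list, miR-10a-5p was lower too (difference -1.86, limma adjusted p = 0.0018). MiR-615-3p did not pass (-0.61, limma adjusted p = 0.1). The lists were chosen with earlier results of these data known, so they are not an independent check of the labels. The library SAT_EPA 1 stood apart. The 7 epithelial miRNAs (miR-205-5p, miR-203-3p and the miR-200 family, known from skin and glands) summed to 8.11 to 8.63 in the brown libraries (log2 of the linear values above the floor, summed, with the floor added once), and in subcutaneous fat to 15.27 in SAT_EPA 1, 8.27 in SAT_EPA 3 and 8.72 in SAT_EPA 8. Muscle miRNAs summed to 17.21 in BAT_EPA 4 and 16.91 in SAT_EPA 3, against 10.32 to 13.33 in the other libraries.

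Both arms of miR-335 were listed at the floor in all 3 brown libraries and stood well above it in all 3 subcutaneous libraries. MiR-335-3p had 3.32, 3.32 and 3.32 in brown fat (BAT_EPA 3, 4 and 5), against 11.21 in SAT_EPA 1, 10.43 in SAT_EPA 3 and 10.70 in SAT_EPA 8. MiR-335-5p had 3.32 in each brown library as well, against 7.68 in SAT_EPA 1, 8.29 in SAT_EPA 3 and 8.65 in SAT_EPA 8. The groups did not overlap for either arm, and the lowest subcutaneous value, that of miR-335-5p in SAT_EPA 1, was 4.36 above the floor. All 3 brown values lay under all 3 subcutaneous values for 40.1% of the tested arms, so a lack of overlap alone does not set miR-335 apart.

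**Figure D1:**
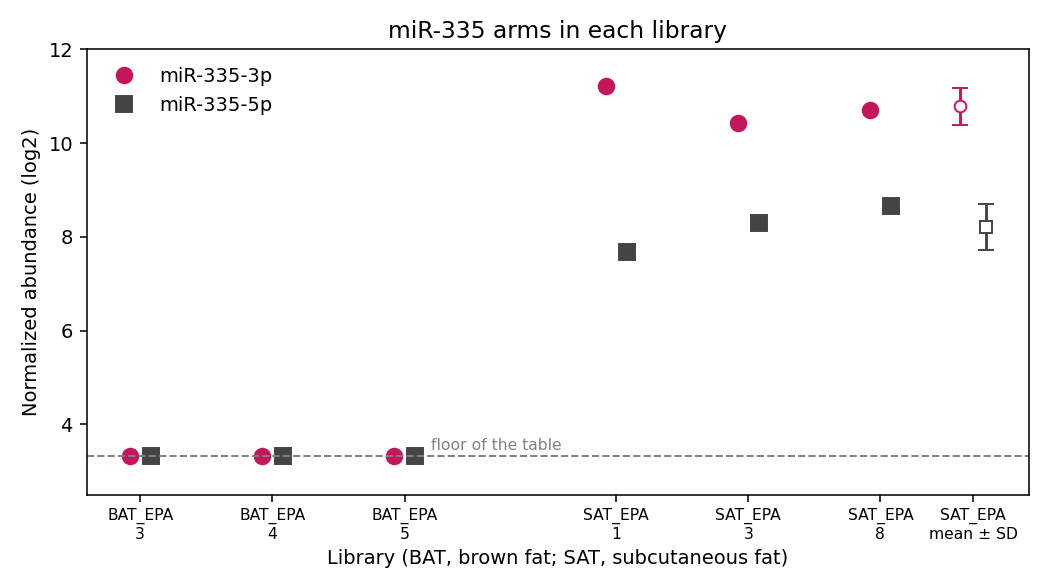
Normalized abundance (log2, vertical axis) of miR-335-3p (circles) and miR-335-5p (squares) in each library, with the mean ± SD of the 3 subcutaneous libraries as open symbols. Both arms lie on the floor of 3.32 in brown fat, and in subcutaneous fat the 3p arm lies above the 5p arm in every library.

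The difference, brown minus subcutaneous, was -7.46 ± 0.30 (SE, n = 3 per tissue, limma adjusted p = 1.15e-05) for miR-335-3p, and -4.89 ± 0.39 (SE, limma adjusted p = 9.85e-05) for miR-335-5p. Both passed the test, as did 69.1% of the tested arms, 35.7% lower in brown fat as miR-335 was and 33.5% higher. An exact two-sided permutation test of either arm alone gave p = 0.1, the smallest that 3 libraries against 3 allow. All brown values being one value, that tissue adds no spread and the SE can be too small, and the floor limits how far a difference can go. Without SAT_EPA 1, the library high in epithelial miRNAs, the difference was -7.25 for the 3p arm and -5.15 for the 5p arm. Its size depended on how the floor and base composition were treated: it was -5.17 for the 3p arm and -2.75 for the 5p arm with 40 added on the linear scale, -10.78 and -8.16 with the floor subtracted and 1 added, and -5.48 and -2.13 with each library's trend with GC content removed. In bulk tissue, fewer cells that make a miRNA and less of it per cell cannot be told apart.

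Among all tested arms, ordered by the difference, miR-335-3p was the 2nd lowest and miR-335-5p the 9th lowest of 269; with GC trends removed they were the 4th and the 42nd lowest of 229. By abundance within a library, miR-335-3p ranked 67 of 235 arms above the floor in SAT_EPA 1, 83 of 273 in SAT_EPA 3 and 78 of 252 in SAT_EPA 8. MiR-335-5p ranked 157, 137 and 125 in the same libraries. The 3p arm thus belonged to the upper part of the subcutaneous libraries, and the 5p arm to their middle, while neither was recorded above the floor in brown fat.

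Other miRNAs as abundant as miR-335 in subcutaneous fat were mostly present in brown fat. Of 19 other arms whose subcutaneous mean lay within 0.5 (log2) of that of miR-335-3p, 1 was at the floor in all brown libraries, and the median of their brown means was 10.92. Of 35 such arms for miR-335-5p, 3 were at the floor in all brown libraries, and the median brown mean was 7.32.

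In all, 16 tested arms (5.95%) were at the floor in the 3 brown libraries and above it in the 3 subcutaneous ones, and both miR-335 arms were among them. The reverse, at the floor in subcutaneous fat and above it in brown fat, held for 15 arms. Ordered by their subcutaneous mean, the highest of the 16 was miR-196a-5p, whose mean was 10.81 ± 0.11 (SD, n = 3). MiR-335-3p followed with 10.78 ± 0.40. MiR-205-5p came next with a mean of 9.37 ± 4.96, ahead of miR-340-5p (9.21 ± 0.70) and miR-196b-5p (8.52 ± 0.42). MiR-196a-5p and miR-335-3p did not differ beyond their spread. MiR-205-5p, an epithelial miRNA, had 15.02 in SAT_EPA 1, 7.35 in SAT_EPA 3 and 5.74 in SAT_EPA 8, and it missed the threshold (limma adjusted p = 0.054); without SAT_EPA 1 its difference was -3.22 with an adjusted p of 0.0069. MiR-335-5p, with a mean of 8.21 ± 0.49, came 7th. Just above it was miR-298-5p of the imprinted Gnas region (8.24 ± 0.67), and this pair did not differ beyond its spread either. MiR-335 was the only stem with both arms among the 16. The filter partly sets this, because the other arm of several stems, such as miR-196a and miR-340, was not tested and could not be counted.

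**Figure D2:**
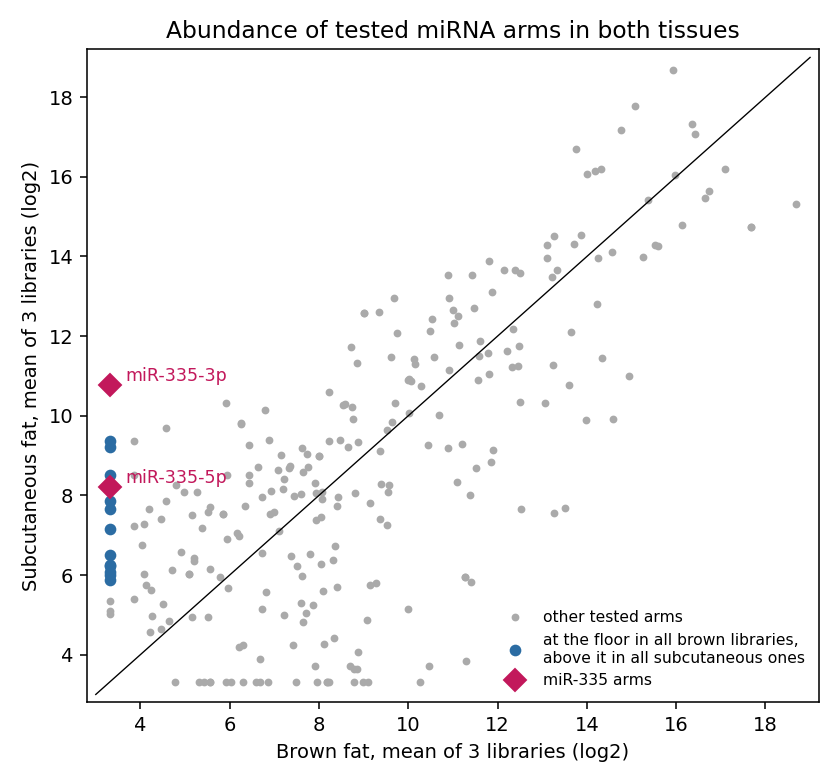
Mean abundance (log2) of each of the 269 tested arms in brown fat (horizontal axis) and subcutaneous fat (vertical axis), each over 3 libraries, with the line of equal values. Diamonds mark the miR-335 arms and larger circles the other arms at the floor in all brown and above it in all subcutaneous libraries. MiR-335-3p lies at 3.32 and 10.78, beside miR-196a-5p.

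Likeness to each arm was measured as the root mean square difference of log2 values over the 6 libraries. Nearest to miR-335-3p was miR-196a-5p at 0.268, followed by miR-340-5p at 1.16, the myeloid miRNA miR-223-3p at 1.20, miR-708-5p at 1.41 and miR-196b-5p at 1.63. Nearest to miR-335-5p was miR-138-5p at 0.528, followed by miR-196b-5p (0.548), miR-298-5p (0.580), miR-224-5p (0.628) and miR-199b-5p, of the stromal miR-199 group (0.768). The nearest arm to each is shown to let the seeds, in capitals, be compared.
miR-196a-5p: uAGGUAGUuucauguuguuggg
miR-138-5p: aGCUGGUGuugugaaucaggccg

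Within the subcutaneous libraries the 3p arm exceeded the 5p arm each time, by 3.53 in SAT_EPA 1, 2.14 in SAT_EPA 3 and 2.05 in SAT_EPA 8 (log2). On the linear scale the 3p arm was 11.6, 4.41 and 4.15 times as abundant as the 5p arm in these libraries, or 92.1%, 81.5% and 80.6% of the sum of both. The mean difference was 2.58 ± 0.33 (SE, n = 3, limma adjusted p = 0.00019), a ratio of 5.96. Such a test was passed by 97.6% of the 42 stems that had both arms above the floor in all 3 libraries (20 stems, or 47.6%, with the 3p arm higher, and 21 with the 5p arm higher), so the call itself does not set miR-335 apart. With 3 libraries the exact two-sided sign permutation test gave p = 0.25, its smallest value.

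The arm difference of miR-335 was moderate among these stems. The differences ran from -9.96 to 9.50, with a median size of 3.70, and 28 of the other stems had a larger one. Nearest to miR-335 were miR-210 with 2.37 ± 0.34 (SE), a miRNA induced by hypoxia, miR-199a with 2.27 ± 0.21 and miR-148b with 3.05 ± 0.37. MiR-199a-3p and miR-199b-3p had the same value in every library, so the miR-199a difference may not be that of a single hairpin. The higher arm started with U, the base that Argonaute proteins prefer at the first position of a guide, in 50% of 34 stems with sequences, and the lower arm in 26.5%. Both arms of miR-335 start with U. Among the first 4 bases of each arm, 0 are G or C in miR-335-3p and 1 in miR-335-5p. The part of these bases in the arm difference was not tested.

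The arms parted in SAT_EPA 1, while both were higher in SAT_EPA 8 than in SAT_EPA 3. SAT_EPA 1 had the highest value of miR-335-3p and the lowest of miR-335-5p, and its arm difference was 1.44 above the mean of the other two libraries. Over the 42 stems the median of that shift was 0.12, and 2 stems had a larger one than miR-335. The range of the arm difference over the 3 libraries was 1.48 for miR-335, against a median of 0.74, and 6 stems had a larger range. Without SAT_EPA 1 the mean arm difference was 2.10, a value that rests on 2 libraries. The sum of both arms was 11.33 in SAT_EPA 1, 10.73 in SAT_EPA 3 and 11.02 in SAT_EPA 8 (log2). The part of the epithelial miRNAs of SAT_EPA 1 in this shift was not tested.

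**Figure D3:**
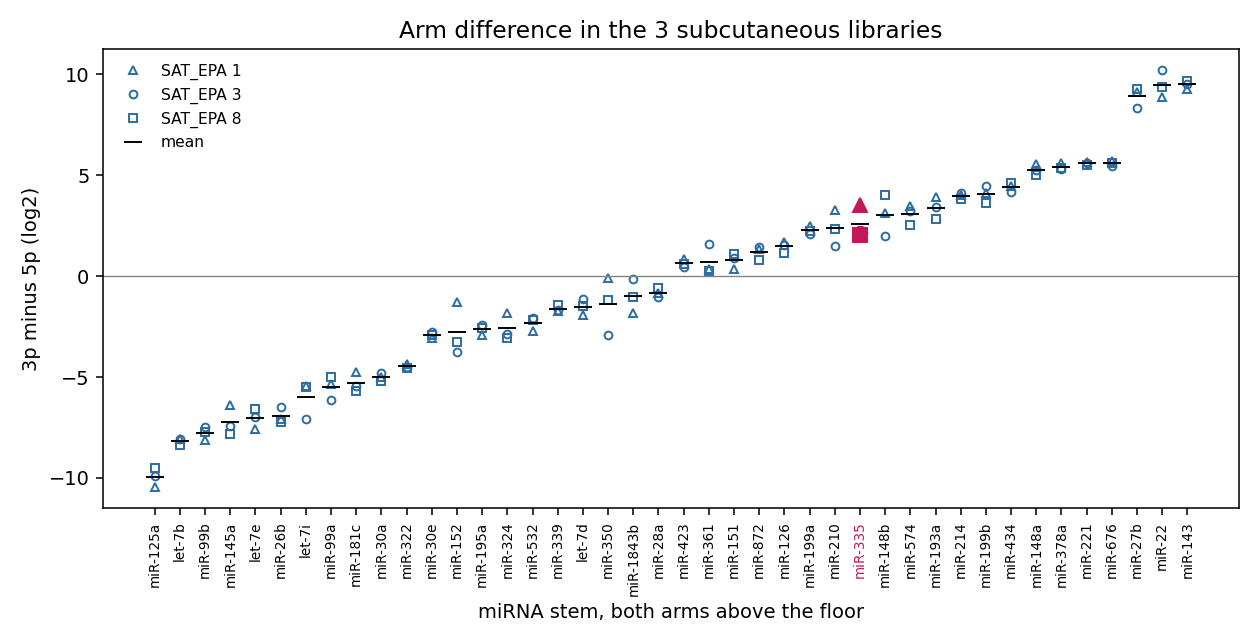
Difference between the 3p and 5p arms (log2, vertical axis) of 42 miRNA stems in the subcutaneous libraries SAT_EPA 1 (triangles), 3 (circles) and 8 (squares), with the mean as a bar, ordered by the mean. MiR-335, with filled symbols, has a mean of 2.58, and its triangle at 3.53 lies above the other two libraries.

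The miRNAs encoded near miR-335 differed in direction between the tissues. Within 2 Mb on chromosome 6 lie 6 other hairpins with 12 arms in the table, of which 6 were at the floor in all libraries. Of the 5 that were tested, 2 were higher and 2 lower in brown fat, where 33.5% of all tested arms were higher and 35.7% lower. MiR-129-5p, 1719 kb from miR-335 toward the start of the chromosome, had 10.27 ± 0.45 (SD, n = 3) in brown fat and was at the floor in all subcutaneous libraries, the reverse of miR-335. It is also encoded at another locus. MiR-129-1-3p, from the hairpin near miR-335, had 4.94 ± 0.29 in brown fat and did not pass the filter. MiR-129-2-3p, named for the other hairpin, had 11.30 ± 0.41 there. Which locus supplied miR-129-5p was not tested. MiR-182-5p, 575 kb away in a cluster of sensory and epithelial miRNAs, had 12.49 ± 0.50 in brown fat and 10.35 ± 1.60 in subcutaneous fat, and passed the test (limma adjusted p = 0.047). That call was lost without any one of the brown libraries or without SAT_EPA 3 or SAT_EPA 8 (limma adjusted p between 0.0859 and 0.156), without both libraries numbered 3 (0.298), with the floor subtracted and 1 added (0.0634) and without a mean-variance trend (0.0632). Its difference was 2.15 ± 0.78 (SE), or 3.07 without SAT_EPA 1. Its neighbour miR-183-5p had 7.92 ± 0.46 in brown and 8.31 ± 1.64 in subcutaneous fat and did not pass (difference -0.39 ± 0.81 SE, limma adjusted p = 0.678); its direction turned without SAT_EPA 1 (0.55), under median-of-ratios scaling (0.0236) and once GC trends were taken out (0.999). Both were highest among the subcutaneous libraries in SAT_EPA 1, as was miR-335-3p.

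On the other side, 321 to 322 kb away, lie miR-29a and miR-29b-1, whose mature arms repress collagen genes. MiR-29a-3p had 13.10 ± 0.30 in brown and 13.96 ± 0.14 in subcutaneous fat (difference -0.87 ± 0.18 SE, limma adjusted p = 0.0058). It missed the threshold under median-of-ratios scaling (limma adjusted p = 0.062), and its direction turned to 0.53 when the trend of each library with GC content was removed. MiR-29b-3p, which is also encoded at another locus, did not leave the floor in brown fat and had 6.25 ± 0.46 in subcutaneous fat (limma adjusted p = 0.0018, and 0.235 once the GC trend was taken out). Among the arms within 2 Mb it was the only one besides those of miR-335 that was listed at the floor in every brown library and above it in every subcutaneous one.

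**Figure D4:**
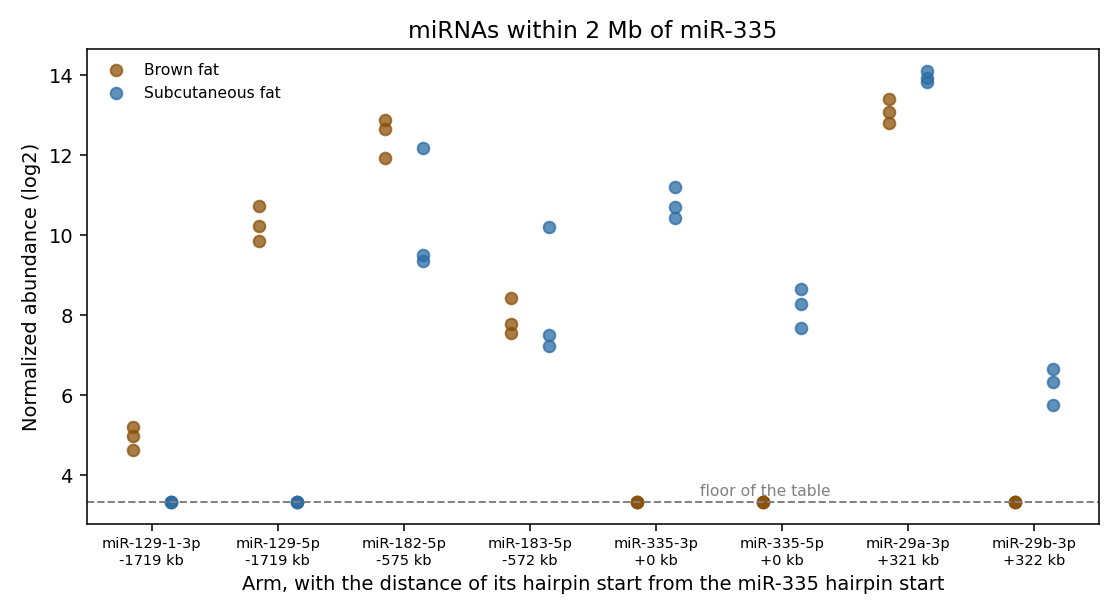
Normalized abundance (log2, vertical axis) of the arms above the floor in any library whose hairpins lie within 2 Mb of miR-335, in map order with the distance from the miR-335 hairpin. Brown libraries are drawn left and subcutaneous ones right of each position. MiR-129-5p, which is also encoded at another locus, stands at 10.27 on average in brown fat and at the floor in subcutaneous fat. MiR-335 shows the reverse.

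MiRNAs of other imprinted loci were called in either direction. Of 53 listed arms of the Dlk1-Dio3, Gnas, Igf2, H19 and Rasgrf1 regions, 28 were at the floor in all libraries and 19 were tested. Brown fat was higher for 5 and lower for 5 of these 19, with a median difference of 0.19, against -0.45 over all tested arms (33.5% higher, 35.7% lower). The list does not hold every tested arm of these regions, so the counts are those of the listed arms alone. The 10 calls numbered 9 to 12 without single libraries. MiR-668-3p and miR-433-3p, of the Dlk1-Dio3 region, had 8.69 ± 0.40 and 8.88 ± 0.29 (SD, n = 3) in brown fat, against 3.73 ± 0.70 and 4.07 ± 1.30 in subcutaneous fat. Of the 19, miR-298-5p, miR-382-5p and miR-434-5p were at the floor in brown fat and above it in subcutaneous fat, as the miR-335 arms were. This held for 5.95% of all tested arms. Unlike miR-335, the miR-434 stem had its other arm, miR-434-3p, in both tissues. That arm had 11.78 ± 0.17 in brown and 11.59 ± 0.30 in subcutaneous fat (limma adjusted p = 0.415).

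Of 16 tested arms reported to change in white fat of obese mice, 10 were lower and 4 higher in brown fat (35.7% and 33.5% of all tested arms), with a median difference of -1.74, against -0.45 over all tested arms. The 14 calls numbered 11 to 14 without single libraries, the fewest without BAT_EPA 3. MiR-146b-5p, an inflammation-linked miRNA, had 6.25 ± 0.67 in brown and 9.78 ± 0.32 in subcutaneous fat, and miR-21a-5p had 9.67 ± 0.91 in brown and 12.97 ± 0.22 in subcutaneous fat. MiR-378a-3p, of brown adipocytes, was among the 4 that were higher in brown fat (18.67 in each brown library). None of the 16 was at the floor in all brown libraries and above it in all subcutaneous ones. Among all tested arms 5.95% were, so with 16 arms the lack of any does not set this list apart.

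Markers of some other cell types moved along with miR-335 between the tissues, and their part in its difference was not tested. All 6 stromal arms were tested and 5 were lower in brown fat (6 called without BAT_EPA 4 or SAT_EPA 1), where 35.7% of all tested arms were lower, with summed levels of 14.64 to 14.91 in brown fat and 16.47 to 16.80 in subcutaneous fat (log2, as above), and none of the 6 was at the floor in either whole tissue. Both endothelial arms were lower in brown fat (11.66 to 11.90 in brown and 13.27 to 13.62 in subcutaneous fat, summed). Of 3 tested leukocyte arms 2 were lower and 1 higher, where 35.7% of all tested arms were lower and 33.5% higher. MiR-223-3p (mean 3.85 in brown and 9.36 in subcutaneous fat) and miR-142-5p (6.64 and 8.72) were lower. MiR-150-5p was higher (15.26 and 13.99). Summed leukocyte levels, 15.03 to 15.47 in brown and 13.81 to 14.30 in subcutaneous fat, lay close to those of miR-150-5p alone. MiR-155-5p and miR-142-3p, which mark leukocytes, were at the floor in all libraries. None of 5 tested epithelial and 3 tested muscle arms passed. The epithelial miR-205-5p passed without SAT_EPA 1 or SAT_EPA 8, with the floor subtracted and 1 added (limma adjusted p = 0.0197), with the filter 10 times as strict (0.0461) and with GC trends removed (0.0417). Of the 2 tested red cell arms, miR-486-5p was higher and miR-451a lower in brown fat (for miR-451a, -1.49 as deposited and 0.50 once the GC trend was taken out). Of the 7 epithelial arms, 4 were at the floor in all brown libraries, and the 5 of the miR-200 family were at the floor in SAT_EPA 3 and SAT_EPA 8. In these 2 libraries miR-203-3p had 7.28 and 8.56, and miR-205-5p had 7.35 and 5.74.

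The tissue difference also moved with base composition. Over 229 arms with a sequence, GC content and the brown minus subcutaneous difference had a Spearman's rho of 0.50, a description across arms that share libraries and normalization. The slope of log2 abundance per 10 percentage points of GC was 0.17 to 0.26 in the brown libraries and -1.22 to -0.91 in the subcutaneous ones. Of 16 arms with a GC content no higher than that of miR-335-3p, both miR-335 arms included, 12 were lower and 1 higher in brown fat, against 71 lower and 70 higher among the 213 richer ones. The 16 arms at the floor in brown fat and above it in subcutaneous fat had a median GC content of 44.2% and ranged from 27.3% (miR-340-5p) to 65.2% (miR-298-5p). With each library's GC trend removed, the difference of miR-335-3p was -5.48 ± 0.32 (SE, limma adjusted p = 5e-05), the 4th lowest of 229. That of miR-335-5p was -2.13 ± 0.53 (SE, limma adjusted p = 0.012), the 42nd lowest. Both arms stayed past the threshold, and both differences were smaller than in the values as deposited (-7.46 and -4.89). Values at the floor were included in these trends, and the brown floor values of miR-335 were shifted as if measured. The arm difference in subcutaneous fat was 2.97 with a separate GC trend removed. That trend was fitted in each library over the arms, with sequences, of stems with both arms above the floor.

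**Figure D5:**
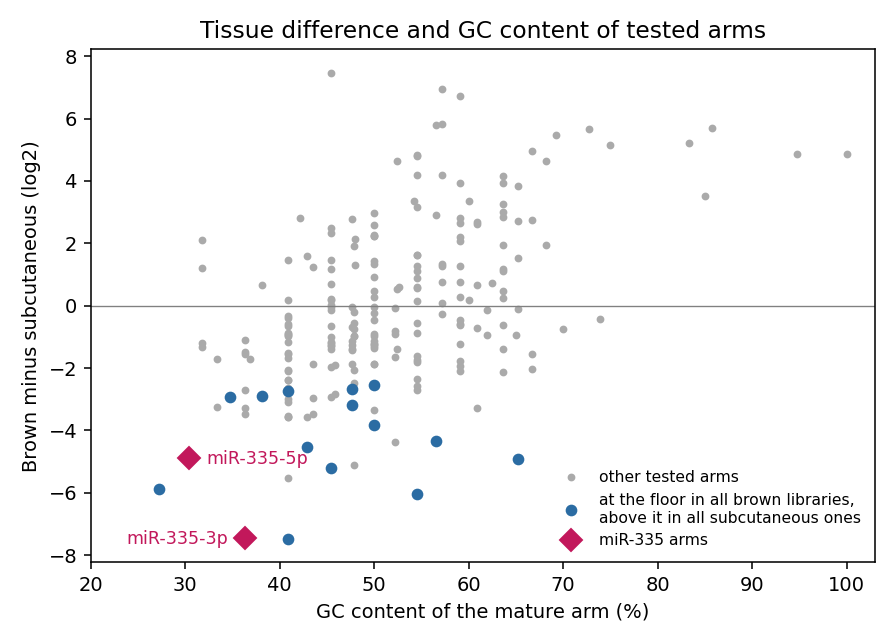
Brown minus subcutaneous difference (log2, vertical axis) against the GC content of the mature arm (%, horizontal axis) for 229 tested arms. The miR-335 arms (diamonds), with a GC content of 36.4% and 30.4%, lie at -7.46 and -4.89, and GC-poor arms lie mostly under 0.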

How the data were processed

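The authors deposited 1 table of log2 abundances for 6 libraries. Per the labels' protocols, libraries were made from total RNA of frozen tissue by Illumina's small RNA method. The series' design text adds that about 13.8 M reads per sample mapped to mm10, that counts were scaled to total usable reads, and that 40 counts were added. That offset does not show in the values, whose floor is 10 on the linear scale. Of the 100 highest ranks, 64% hold a single value in all libraries (within 1e-06), as quantile normalization would leave them, so differences are relative within a library. Neither the aligner nor the miRNA annotation is given in the sources used here.

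Arms were tested where the linear mean over all libraries, less the floor, reached 24.05, a share of the mean total that was set without regard to tissue. Limma 3.58.1 (R 4.3.3) with a mean-variance trend compared the tissues over all tested arms, and the 3p minus 5p difference within subcutaneous libraries over all stems with both arms above the floor there, with Benjamini-Hochberg adjustment at 0.05. Both fits were tested on simulated data drawn from normal distributions without a floor. Those data do not cover an arm listed at a single value in a whole tissue, as miR-335 was. The labels do not say whether libraries came from separate mice, so p-values measure only the spread among these libraries, which may be technical. Alternatives were pseudocounts, filters, median-of-ratios scaling, no variance trend, removal of GC trends (mature sequences for 85.1% of tested arms and both arms of 81.0% of stems) and leaving out libraries. Names were given by a rule: the miR-335 arms, the 5 nearest arms to each, arms within 2 Mb and arms sharing a seed. Also named were up to 3 called members of each list, the 3 nearest stems and the 5 highest arms at the floor in brown fat alone. MiR-382-5p, miR-434-5p, miR-155-5p, miR-142-3p, miR-10a-5p and miR-615-3p were chosen after their values were seen. The members and lists were chosen with earlier results of these data known. Python 3.11.15 with scipy 1.17.1, matplotlib 3.10.9 and RNAfold 2.7.2 was also used.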

Additional observations from a re-analysis of the deposited data

How the results depend on the processing

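The tissue differences of both miR-335 arms kept their direction and stayed past the threshold under every alternative that could be run. MiR-335-3p ranged from -7.64 to -7.25 and miR-335-5p from -5.15 to -4.67 when single libraries were left out. The number of arms called was 186, and 165 to 188 without single libraries. With 40 added on the linear scale the differences were -5.17 and -2.75, and with the floor subtracted and 1 added -10.78 and -8.16. Their size thus depends on how the floor is treated. With both libraries numbered 3 left out the differences were -7.64 and -4.84. Median-of-ratios scaling moved the median of all tested arms to -0.04, against -0.45 as deposited, with -7.04 and -4.47 for the arms. MiR-335-5p did not pass the filter 10 times as strict. The arm difference ranged from 2.10 (without SAT_EPA 1) to 2.84 without single libraries. The count of stems called, 41 of 42, was 127 of 131 where one arm above the floor sufficed and 22 of 22 where both arms had to reach 10 times the floor, since the settings change the stems tested. With the GC trend removed, miR-29a-3p turned to 0.53, miR-183-5p to 0.999 and miR-451a to 0.50; miR-183-5p, not called, was 0.0236 with median-of-ratios scaling and from -0.93 (without SAT_EPA 8) to 0.55 (without SAT_EPA 1) without single libraries. The call of miR-182-5p was lost with the floor subtracted and 1 added, without a mean-variance trend and without single libraries other than SAT_EPA 1. Among the epithelial list 0 arms were called, and 1 without SAT_EPA 1 or SAT_EPA 8. The arms at the floor in brown fat alone numbered 16, and 16 to 22 without any one library; these counts and those of the lists without single libraries were chosen after seeing the data. No paired analysis was possible because the tissues share only the replicate number 3. Read depth is unknown, so a value at the floor limits what can be said of miR-335 in brown fat.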
